A study of Rattus norvegicus with 4 samples.

Results

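The 9 genes described here encode the endothelin-1 precursor (Edn1), its processing enzyme (Ece1) and both endothelin receptors (Ednra and Ednrb), the angiotensin-converting enzyme (Ace) and an angiotensin II receptor (Agtr1a), and 3 adrenergic receptors of the heart (Adra1a, Adra1b and Adrb1). They were chosen by gene name for these roles, with earlier results of the same drug comparison known, and all 9 were found among the 17147 genes of the deposited table. Their differences between TMP195 and vehicle are therefore given as a description, without a p-value of their own. The cells were neonatal rat ventricular myocytes, which are heart muscle cells taken from the left ventricle of newborn rats and kept in a serum-free medium with a Nutridoma supplement. One group of 2 libraries came from cells given the solvent DMSO (vehicle), and the other group of 2 came from cells given TMP195, an inhibitor selective for class IIa histone deacetylases, at 3 µM; both were harvested after 48 h. The labels state no genotype, strain or sex, and they do not say whether the 2 libraries of a group came from separate isolations, so p-values cover only library-to-library spread, possibly technical.

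Endothelin-1, angiotensin II and noradrenaline are the signals classically used to make cultured cardiac myocytes grow. The endothelin A receptor, the angiotensin type 1 receptor and the alpha-1 adrenergic receptors couple mainly to Gq, which activates phospholipase C and so releases calcium and turns on protein kinase C. The beta-1 adrenergic receptor couples to Gs and raises cyclic AMP, which increases the rate and force of the heartbeat.

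The library totals corresponded to 11768468 to 14232145 fragments, with 12583 to 12800 genes above 0. A deposited value is an estimated fragment count multiplied by one factor per library (0.879 to 1.05), so it lies close to the number of fragments behind it. The limma fit took in 12689 genes whose values averaged at least 1, among them all 9 genes. The markers of cardiac myocytes were abundant in every library, with summed values of 8 markers from 326920 to 350860, so the labelled cell type's markers were found. Markers of fibroblasts and of smooth muscle cells and pericytes were also present, with summed values of 69620 to 97552 and 12313 to 17311. With TMP195, limma found 10.3% of all genes tested lower and 9.93% higher at an adjusted p (Benjamini-Hochberg) under 0.05. The median log2 fold change over all genes tested was -0.01, on values that the authors had already scaled per library.

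The sequences just upstream of the annotated start are shown for Ednra, Ece1 and Adra1b, because these genes were lower together with TMP195, and for Edn1 and Agtr1a, because theirs were the promoters with a motif match. Each is 250 bases of the RefSeq assembly GRCr8 ending at the base before the annotated start, read 5′ to 3′ on the gene's own strand. Their positions are chr19:47137674-47137923 (plus strand) for Ednra, chr5:155360781-155361030 (plus strand) for Ece1 and chr10:28814348-28814597 (minus strand) for Adra1b. Edn1 lies at chr17:22666688-22666937 (minus strand) and Agtr1a at chr17:34435433-34435682 (minus strand). Capitals mark motif matches.
Ednra: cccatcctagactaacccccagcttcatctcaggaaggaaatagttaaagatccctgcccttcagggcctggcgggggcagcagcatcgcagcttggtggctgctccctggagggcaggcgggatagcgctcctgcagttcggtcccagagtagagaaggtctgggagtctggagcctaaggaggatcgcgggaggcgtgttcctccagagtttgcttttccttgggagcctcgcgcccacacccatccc
Ece1: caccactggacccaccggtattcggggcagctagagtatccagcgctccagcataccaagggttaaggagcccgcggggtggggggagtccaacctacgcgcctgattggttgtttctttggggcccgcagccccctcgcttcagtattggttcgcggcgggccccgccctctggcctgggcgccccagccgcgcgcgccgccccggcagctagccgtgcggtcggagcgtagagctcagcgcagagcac
Adra1b: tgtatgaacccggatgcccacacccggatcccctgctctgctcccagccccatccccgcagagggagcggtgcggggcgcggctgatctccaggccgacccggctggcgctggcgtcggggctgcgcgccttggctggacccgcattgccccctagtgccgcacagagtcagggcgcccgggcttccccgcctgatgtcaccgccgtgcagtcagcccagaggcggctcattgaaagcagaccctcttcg
Edn1: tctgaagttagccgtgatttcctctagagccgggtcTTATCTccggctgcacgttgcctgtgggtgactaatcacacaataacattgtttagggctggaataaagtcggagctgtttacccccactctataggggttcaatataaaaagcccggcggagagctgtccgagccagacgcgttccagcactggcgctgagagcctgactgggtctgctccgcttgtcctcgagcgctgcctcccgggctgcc
Agtr1a: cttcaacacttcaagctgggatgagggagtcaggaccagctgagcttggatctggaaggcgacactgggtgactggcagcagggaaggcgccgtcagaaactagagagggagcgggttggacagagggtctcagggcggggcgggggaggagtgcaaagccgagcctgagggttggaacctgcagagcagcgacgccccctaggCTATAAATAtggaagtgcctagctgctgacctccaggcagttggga

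Motif patterns were searched on both strands: AP-1 as TGANTCA, the cyclic AMP response element as TGACGTCA, GATA as AGATAA, the amino acid response element as TGATGNAAN, MEF2 as CTANNNNTA and the E-box as CACGTG. RefSeq promoters were matched for 8 of the 9 genes, all but Adra1a. Edn1 held the GATA pattern on the opposite strand, 214 to 209 bases before the start, and Agtr1a held the MEF2 pattern 46 to 38 bases before the start, where it runs over the letters TATAAA. Neither pattern is rare, since 10% of 27457 RefSeq promoters hold the GATA pattern and 20% the MEF2 pattern. The other patterns occur in 6.36% (AP-1), 1.70% (cyclic AMP response element), 3.25% (amino acid response element) and 5.79% (E-box) of the same promoters. The Ednra, Ece1 and Adra1b windows held no match to any of these patterns, which says only that these letters are not in these windows. The 3 windows consist of G or C at 61.2%, 69.2% and 70.8% of bases, against a median of 52% over all promoters, and hold 10, 25 and 23 CG pairs, against a median of 6. Promoters of genes that did not pass the threshold had like values, with 72% G or C and 24 CG pairs for Adrb1, 69.2% and 23 for Ace, and 60.8% and 9 for Agtr1a.

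With TMP195, the transcript of the endothelin A receptor was the most reduced of the 9, at 42.4% of its vehicle mean, and those of the endothelin-converting enzyme and the alpha-1B receptor lay at 61.2% and 63.5%. The alpha-1A and beta-1 receptors stayed near their vehicle values. The remaining genes, Edn1, Ednrb, Ace and Agtr1a, had lower means with intervals that included no change. In the fit over all genes, 3 of the 9 lay past the threshold as lower (10.3% of all genes tested) and the other 6 did not pass it in either direction. Both TMP195 libraries lay below both vehicle libraries for 6 of the 9, against 28.7% of all genes tested, and above them for 1, against 28% of all genes tested. Since the genes were chosen with this comparison known, nothing is read from these shares. The median log2 fold change of the 9 was -0.60.

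With all 4 libraries the 3 calls held with no filter on low values and with a mean of at least 10 or 100. With 1 library left out they depended on the library and on that filter, while the sizes moved less. With 1 library left out, Ednra and Ece1 passed the threshold without TMP195 1 and did not without vehicle 1, vehicle 2 or TMP195 2, and Adra1b passed in none of these 4 fits. In the 3 fits without those other libraries limma called 0 of all genes tested, with 2589 to 2772 at an unadjusted p under 0.05. Log2 fold changes ranged over the 4 fits from -1.28 to -1.19 for Ednra, from -0.75 to -0.66 for Ece1 and from -0.78 to -0.52 for Adra1b. When only genes averaging at least 100 were fitted, a setting chosen after seeing the data, these sizes were the same. With 1 library left out, such fits took each gene's variance from the trend over all genes alone (infinite prior degrees of freedom). Calls from them therefore do not describe a gene's own spread between libraries. In the main fit, with 2 residual and 27.4 prior degrees of freedom, each gene's variance also came mostly from that trend. Its SEs, intervals and adjusted p therefore reflect a gene's own spread only in small part.

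**Figure D1:**
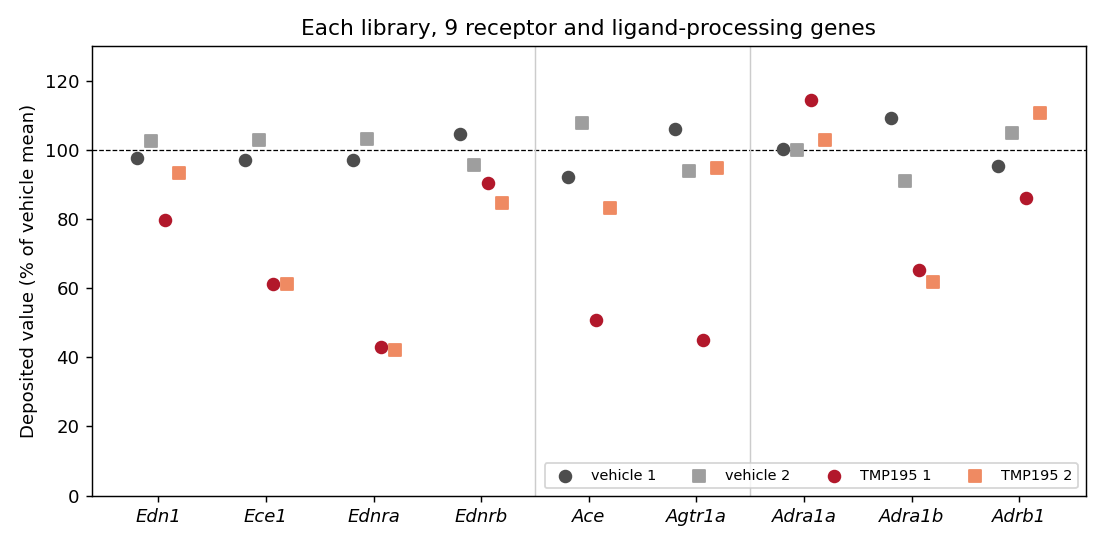
Deposited value of each of the 9 genes in each library, as a percentage of the gene's vehicle mean (dashed line at 100%); circles are replicate 1 and squares replicate 2, grey for vehicle and red or orange for TMP195. Both TMP195 points of Ednra (mean 42.4%), Ece1 (61.2% in each) and Adra1b (65.1% and 61.8%) lie below all vehicle points, while those of Ace and Agtr1a lie far apart from each other.

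Among the ligand genes, Edn1 encodes the precursor that is cut to the vasoconstrictor peptide endothelin-1. Its deposited value was 103 and 108 in the vehicle libraries and 84.4 and 98.8 in the TMP195 libraries. Both TMP195 libraries were lower, by less in library 2 than in library 1. The log2 fold change was -0.21 (95% interval -0.68 to 0.26), which spans a decrease to 0.623 times and an increase to 1.20 times the vehicle level. The genes of the other endothelin peptides, Edn2 and Edn3, are listed at 0 in all 4 libraries.

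Ece1 encodes the membrane protease that releases active endothelin-1 from its precursor. It was at 736 and 780.4 with vehicle and at 464 in each TMP195 library. The groups were thus well apart, and the TMP195 libraries were nearly identical. These 2 values rest on 528 and 484 fragments, and their closeness is not taken as a measure of the spread. The mean was 758 ± 31.5 with vehicle and 464 ± 0.146 with TMP195 (SD, n = 2 each), a log2 fold change of -0.71 (SE 0.11, 95% interval -0.92 to -0.49) that passed the threshold. The related protease gene Ece2 had low and uneven values, with 19.9 and 5.27 with vehicle and 15.8 and 16.3 with TMP195.

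Ednra encodes the endothelin A receptor, the main endothelin receptor of cardiac myocytes and of vascular smooth muscle. Its value was 2712 and 2878 in the vehicle libraries and 1199 and 1173 in the TMP195 libraries. The groups did not overlap, and the 2 libraries within each group lay close together. The mean went from 2795 ± 118 to 1186 ± 18.2 (SD, n = 2 each), a fold change of 0.425 (95% interval 0.380 to 0.475). On the log2 scale this is -1.24 (SE 0.08), past the threshold. Among 8235 genes averaging at least 100, 30 had a lower log2 fold change. Over all 12689 genes tested, low ones included, it ranked 458 from the lowest. With 8180 fragments over the 4 libraries, it was the most deeply covered of the 9 genes.

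Ednrb encodes the endothelin B receptor, which on endothelial cells releases nitric oxide and which also clears endothelin-1. It was at 42.7 and 39.0 with vehicle and at 36.9 and 34.5 with TMP195. The TMP195 libraries were slightly lower and the groups did not overlap. The gene rests on 160 fragments in all, and its log2 fold change of -0.19 has a 95% interval of -0.90 to 0.53. A decrease as large as that of Ednra lies outside this interval, but the difference between the genes' changes was not itself tested. By the authors' FPKM, which are per transcript length, Ednra exceeded Ednrb 26.1 and 30.4 times in the vehicle libraries and 13.4 and 14.0 times in the TMP195 libraries.

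Some markers of non-myocyte cells were lower beside Ednra, Ece1 and Adra1b. The summed value of 8 fibroblast markers was 94160 to 97552 with vehicle and 69620 to 72549 with TMP195, and 4 of the 8 fell in the limma fit. For 8 smooth muscle and pericyte markers it was 17028 to 17311 with vehicle and 12313 to 13228 with TMP195, and 5 of 8 fell. With TMP195 both sums lay between 71.7% and 77.0% of the vehicle mean. Col1a1 and Col3a1 made up 89.4% of the fibroblast sum with vehicle, and the other 6 markers summed to 9864 and 10376 with vehicle and to 10300 and 10019 with TMP195. Postn was the largest of these 6, with a vehicle mean of 6052, and was at 109% of it with TMP195. Dcn and Ddr2 were at 96.1% and 96.7% of their vehicle means, while Tcf21, Pdgfra and Lum were at 68.1%, 74.1% and 72.8%. Beside Col1a1 and Col3a1, Tcf21 and Pdgfra were the fibroblast markers that fell. The 5 of the mural (smooth muscle and pericyte) list that fell were Acta2, Tagln, Cnn1, Cspg4 and Notch3. Acta2 and Tagln led the mural sum, with vehicle means of 7949.5 and 4397.5, and were at 67.8% and 71.8% of them with TMP195. Myh11, Kcnj8 and Pdgfrb of the same list did not pass, at 83.3%, 96.9% and 105%. For 8 endothelial markers the sum was 653 to 716 with vehicle and 379 to 381 with TMP195, or 55.6% and 55.3% of the vehicle mean. The 2 of 8 that fell were Kdr and Tek, which also lead the sum, with vehicle means of 349 and 187. Of those that did not pass, Cdh5, Tie1 and Emcn were at 48.9%, 48.4% and 7.01% of their vehicle means. Pecam1, Egfl7 and Vwf were at 88.7%, 81.3% and 146%. None of these 3 lists had a marker at 0 in all libraries, but the endothelial markers were low. Their median vehicle level was 31.6, against 1342.5 for the fibroblast list, 918 for the mural list and 22.1 for the macrophage list. The 8 myocyte markers stayed at 93.7% and 97.5% of the vehicle mean, with Tnni3 higher and Actn2 and Ryr2 lower. Macrophage markers (0 of 5 tested past the threshold, summed value 289 to 293 with vehicle and 305 to 364 with TMP195) and Schwann and neural markers (0 of 3, summed value 66.4 to 70.2 and 67.1 to 92.3) were scarce. The part of these cells in the decreases of the 3 genes was not tested, and in bulk RNA fewer cells of a type and less RNA per cell cannot be told apart.

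**Figure D2:**
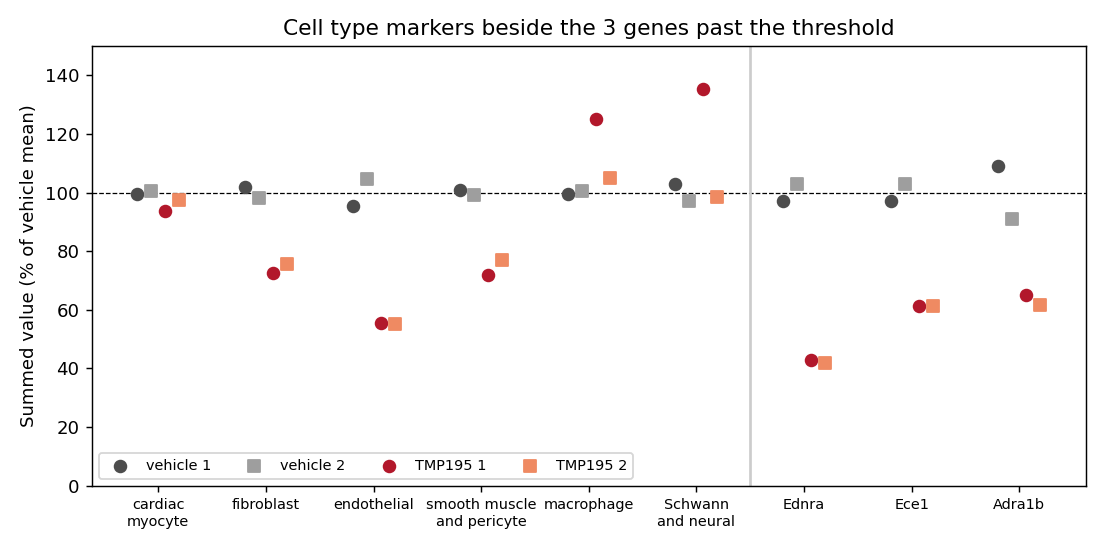
Summed deposited values of 6 cell type marker lists and the values of Ednra, Ece1 and Adra1b in each library, as a percentage of the vehicle mean (dashed line at 100%); grey is vehicle, red and orange TMP195. The TMP195 points of the endothelial list (55.6% and 55.3%), a sum led by Kdr and Tek, lie between those of Ednra and Ece1. Those of the myocyte list (93.7% and 97.5%) lie near 100%.

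Ace encodes the enzyme that makes angiotensin II from angiotensin I and that degrades bradykinin. Its value was 35.1 and 41.1 with vehicle and 19.3 and 31.7 with TMP195. Both TMP195 libraries were lower, but they differed from each other by more than the vehicle libraries did. The gene rests on 131 fragments, and the log2 fold change of -0.60 has a 95% interval of -1.40 to 0.21. Without TMP195 library 1 it was -0.26, and without TMP195 library 2 it was -0.94.

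Agtr1a encodes one of the rodent copies of the angiotensin type 1 receptor, the receptor that carries most effects of angiotensin II on the heart. It was at 55.9 and 49.5 in the vehicle libraries and at 23.7 and 49.9 in the TMP195 libraries. One TMP195 library was low and the other lay between the vehicle libraries, so the groups overlapped. Its log2 fold change of -0.60 (95% interval -1.33 to 0.14) is set by that library, since without TMP195 library 1 it was -0.08. Its near-identical copy Agtr1b is listed at 0 in all 4 libraries, and the sources used here do not say how fragments were divided between the copies, so the level of Agtr1a is uncertain.

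Adra1b encodes the alpha-1B adrenergic receptor, and was at 613 and 511 with vehicle and at 366 and 347 with TMP195. The groups did not overlap, although the vehicle libraries differed from each other more than the TMP195 libraries did. The mean went from 562 ± 72.0 to 356 ± 13 (SD, n = 2 each), a log2 fold change of -0.65 (SE 0.12, 95% interval -0.90 to -0.40) that passed the threshold.

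Adra1a encodes the alpha-1A adrenergic receptor, which responds to the same catecholamines as the alpha-1B receptor through the same G protein. It was at 266 and 265 with vehicle and at 304 and 273 with TMP195, the only gene of the 9 with both TMP195 libraries above both vehicle libraries. Its log2 fold change of 0.12 has a 95% interval of -0.18 to 0.41, so it includes no change. The difference between the changes of Adra1a and Adra1b was not itself tested. By FPKM, Adra1a was 0.820 and 0.979 times Adra1b in the vehicle libraries and 1.57 and 1.48 times in the TMP195 libraries. Vehicle library 2 was thus close to parity, and Adra1a was ahead in both TMP195 libraries.

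Adrb1 encodes the beta-1 adrenergic receptor, the main beta receptor of the heart muscle cell. It was at 229 and 252 with vehicle and at 207 and 266 with TMP195. The TMP195 libraries lay on either side of the vehicle libraries. The mean was 240.1 ± 16.4 and 236 ± 41.8 (SD, n = 2 each), and the log2 fold change of -0.03 has a 95% interval of -0.36 to 0.29.

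**Figure D3:**
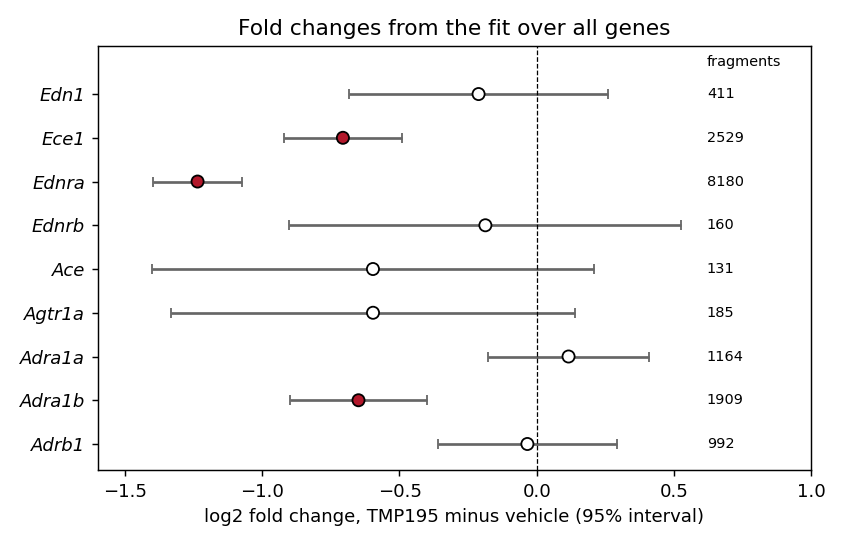
Log2 fold change of each of the 9 genes, TMP195 minus vehicle, with its 95% interval from the limma fit over all genes; filled points are past an adjusted p of 0.05 and the number at the right is the gene's fragments over the 4 libraries. Ednra (-1.24), Ece1 (-0.71) and Adra1b (-0.65) have intervals below 0, and the widest intervals are those of Ace, Agtr1a and Ednrb, which rest on 131 to 185 fragments.

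Levels were compared between genes on the authors' FPKM. In the vehicle libraries the order was Ednra (45.2 ± 1.90 FPKM, SD, n = 2), Ece1 (20.9 ± 0.870), Adra1b (17.3 ± 2.22), Adra1a (15.4 ± 0.0433), Adrb1 (14.3 ± 0.973), Edn1 (6.35 ± 0.217), Agtr1a (1.89 ± 0.164), Ednrb (1.61 ± 0.103) and Ace (0.840 ± 0.0935). No neighbouring pair in this order overlapped in its library values, though Adra1b and Adra1a came close, at 15.7 and 15.5 FPKM in their nearest libraries. With TMP195, Ednra still led at 19.2 ± 0.294 FPKM (SD, n = 2). Adra1a (16.8 ± 1.26) and Adrb1 (14.0 ± 2.48) then stood ahead of Ece1 (12.8 ± 0.00403) and Adra1b (10.98 ± 0.400). Ece1 and Adrb1 overlapped in the TMP195 libraries, as did Ednrb and Agtr1a. Ednra thus had a higher FPKM than each of the 3 adrenergic receptors in both groups, with a narrower lead under TMP195.

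**Figure D4:**
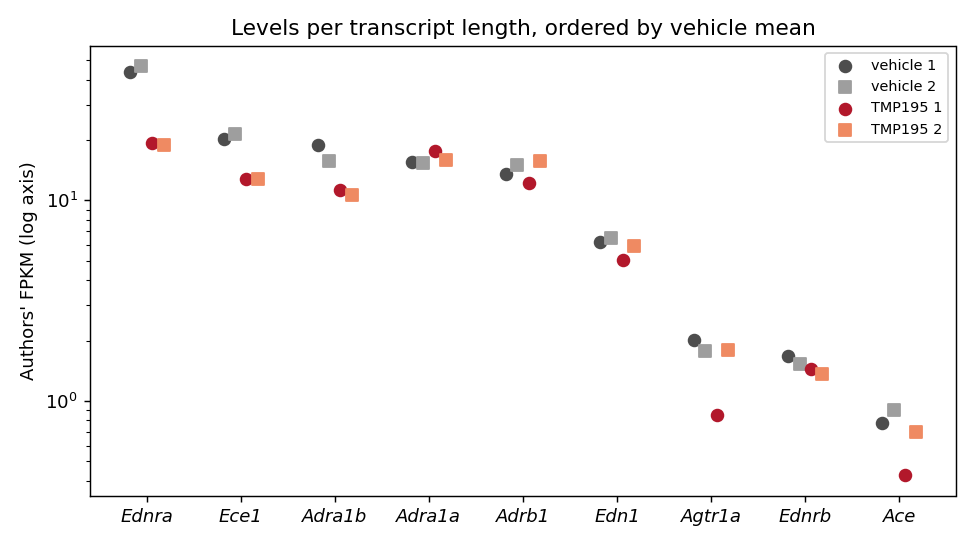
FPKM deposited by the authors for the 9 genes in each library, on a log axis, ordered by the vehicle mean; grey is vehicle, red and orange TMP195. Ednra leads in both groups (45.2 and 19.2 FPKM on average), and with TMP195 the points of Adrb1 and Ece1 overlap while both points of Adra1b lie below those of Adra1a and Adrb1.

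The authors' deposited table lists Ednra and Ece1 on its sheet of lower genes, with ratios of mean FPKM of 0.424 and 0.612. It has none of the other 7 genes on that sheet. Adra1b, which passed the limma threshold here, is among these 7.

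The other genes of the same pathways were tested in the same fit. Over 7 lists, 87 genes apart from the 9 entered it, of which 18 fell and 3 rose, leaving 66 short of the threshold. That is 20.7% lower and 3.45% higher, beside 10.3% and 9.93% of all genes tested, and a median log2 fold change of -0.24 beside -0.01. The lists too were chosen with earlier results of these data known, so nothing is read from these shares. Of the fibroblast, mural and endothelial markers, 4, 5 and 2 of 8 fell in the same libraries, and their part in these decreases was not tested. Of the 21 calls, 0 held in every fit with 1 library left out: without vehicle 1, without vehicle 2 or without TMP195 2, limma called 0 of these genes and 0 of all genes (2589 to 2772 at an unadjusted p under 0.05), and without TMP195 1 it called 7 lower and 2 higher. All 21 kept their direction in these fits, with log2 fold changes of 1.101 to 1.256 for Maoa and -0.64 to -0.54 for S1pr1. When only genes averaging at least 100 were fitted, the fits with 1 library left out called 13 to 17 list genes lower and 2 to 3 higher.

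Among peptidases that remove these ligands, Mme fell. It encodes neprilysin, which degrades endothelin and natriuretic peptides, and had values of 171 and 149 with vehicle and 106 and 96.9 with TMP195. Its log2 fold change was -0.64 (SE 0.20, limma adjusted p = 0.0231), a call lost with no filter on low values (limma adjusted p = 0.0547). The 2 other endothelin list genes tested, Ece2 and the protease gene Kel, had limma adjusted p of 0.557 and 0.812.

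Of 9 further genes of the renin-angiotensin list that were tested, Lnpep fell and 8 did not pass. Lnpep encodes a membrane aminopeptidase that binds angiotensin IV, and was at 2648 and 2762 with vehicle and at 2372 and 1976 with TMP195 (log2 fold change -0.32, SE 0.08, limma adjusted p = 0.00482). Agt, which encodes angiotensinogen, was close to absent at 3.79 and 0 with vehicle and 5.27 and 17.3 with TMP195, and did not pass (limma adjusted p = 0.0739). Agtr1b and Cma1 are listed at 0 in all 4 libraries. Enpep (-0.31), which converts angiotensin II to angiotensin III, and Atp6ap2 (0.24), the prorenin receptor, had limma adjusted p of 0.147 and 0.297.

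Of 5 further adrenergic receptor genes tested, 0 passed the limma test (1 had an unadjusted p under 0.05). That gene was Adra1d, the alpha-1D receptor, with values of 11.4 and 11.6 against 4.39 and 1.92 (log2 fold change -1.65, SE 0.73, limma adjusted p = 0.112). Adra2b and Adrb3 were at most 6.64 and 4.21 in any library (limma adjusted p = 0.650 and 0.755), and Adra2c is listed at 0.

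Downstream of the receptors, 5 of 24 genes of G proteins, phospholipase C and their effectors fell and 19 did not pass. Plcb4, a phospholipase C beta that Gq activates, was at 2134 and 2182.2 with vehicle and 1753 and 1577 with TMP195 (log2 fold change -0.38, SE 0.08, limma adjusted p = 0.00082). Itpr1, the receptor through which inositol trisphosphate releases calcium, was also lower, with a value of -0.45 on the log2 scale (SE 0.10, limma adjusted p = 0.000761). The protein kinase C genes Prkca (-0.28, limma adjusted p = 0.0274) and Prkcd (-0.27, limma adjusted p = 0.0189) fell as well. So did Gnai2, an inhibitory G protein subunit (-0.35, limma adjusted p = 0.000408). The Gq subunits themselves, Gnaq (-0.02) and Gna11 (0.01), did not pass the test. With no filter on low values the Prkca call was lost (limma adjusted p = 0.0704).

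Of 12 genes that switch such receptors off, 3 fell and 9 did not pass. Arrb1, which encodes beta-arrestin-1, was at 173 and 136 with vehicle and at 80.8 and 77.7 with TMP195 (log2 fold change -0.94, SE 0.22, limma adjusted p = 0.00215). Grk5, a kinase that phosphorylates active receptors, was at 482 and 563 with vehicle and 373 and 338 with TMP195 (log2 fold change -0.55, SE 0.12, limma adjusted p = 0.00124). Both genes had separate groups. Rgs3, which speeds the shut-off of Gq and Gi, fell by 0.42 on the log2 scale (limma adjusted p = 0.0438). With no filter on low values or with a replicate block this call was lost (limma adjusted p = 0.0541 to 0.0656). Arrb2 (-0.54) had a limma adjusted p of 0.0567.

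Other receptors for vasoactive signals changed in both directions. Of 26 tested, 7 fell, 2 rose and 17 did not pass. S1pr3, a Gq-coupled receptor for sphingosine 1-phosphate, rose from 673 and 637 to 1032 and 1275 (log2 fold change 0.81, SE 0.10, limma adjusted p = 4.92e-07), while S1pr1 (-0.59) and S1pr2 (-0.61), receptors for the same lipid, fell (limma adjusted p = 7.02e-07 and 4.14e-05). Ptgfr, the prostaglandin F receptor, was at 6396 and 7090 with vehicle and 4849 and 4099 with TMP195 (log2 fold change -0.59, SE 0.08, limma adjusted p = 9.08e-07). Chrm2, the muscarinic receptor that slows the heart, fell (log2 fold change -0.55, SE 0.09, limma adjusted p = 2.17e-05). Lpar1, a receptor for lysophosphatidic acid, fell too (-0.81, SE 0.13, limma adjusted p = 2.19e-05). The nucleotide receptors P2ry6 (-1.37, lower) and P2ry2 (0.50, higher) and the protease receptor F2rl1 (-0.90, lower) passed narrowly (limma adjusted p from 0.0415 to 0.0436). Each of these 3 calls was lost under 3 of 7 other settings (adjusted p from 0.0503 to 0.141).

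Of 8 genes that make or clear catecholamines, Maoa rose and Ddc fell, and 6 did not pass. Maoa encodes monoamine oxidase A of the mitochondrial outer membrane, which breaks down noradrenaline and serotonin and releases hydrogen peroxide. It was at 1220.4 and 1359 with vehicle and at 2786 and 3051 with TMP195 (log2 fold change 1.18, SE 0.08, limma adjusted p = 4.47e-12). All TMP195 values of Maoa were thus well above the vehicle values. Ddc, which makes dopamine from its precursor, was lower (log2 fold change -0.35, SE 0.09, limma adjusted p = 0.00463). Slc18a2, a transporter that loads monoamines into vesicles (-0.32), and Pnmt, which makes adrenaline (-1.52, at most 4.74 in any library), had limma adjusted p of 0.303 and 0.344.

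**Figure D5:**
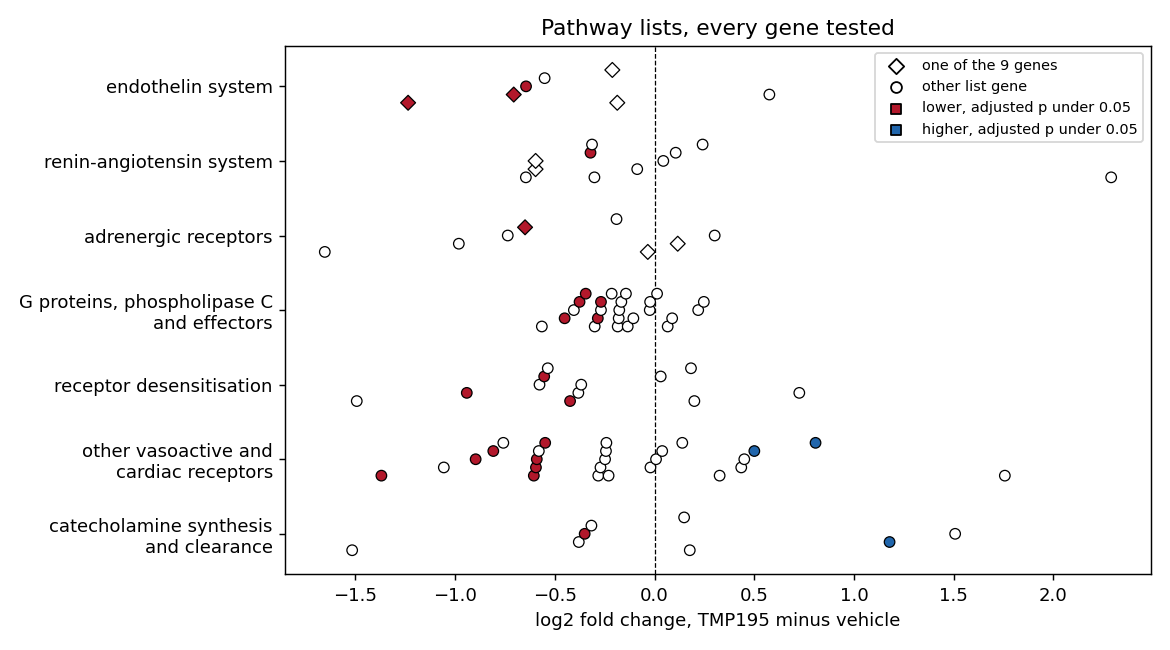
Log2 fold change of every tested gene in 7 pathway lists, TMP195 minus vehicle; diamonds are the 9 genes and circles other list genes, filled red where lower and blue where higher at a limma adjusted p under 0.05. Filled points lie mostly left of 0 (18 lower and 3 higher among the circles), with S1pr3 (0.81), P2ry2 (0.50) and Maoa (1.18) to the right.

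By distance between centred log2 values over the 4 libraries, the genes most like Ednra among 8234 averaging at least 100 were Clspn (distance 0.0780), Ntn1 (0.0851), Lxn (0.108), Bcam (0.117) and Ckap2 (0.123). Their log2 fold changes were -1.29 to -1.14. Those most like Adra1a were Erp44, Scoc, Igf1r, Ubac2 and Aimp2, at distances of 0.0105 to 0.0184. With 4 libraries in 2 groups, such a likeness reflects the size of one change and the order within each pair of libraries.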

How the data were processed

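RNA of neonatal rat ventricular myocytes (2 vehicle and 2 TMP195 libraries, grouped by title) was column-purified and converted to Ovation RNA-Seq libraries, per the labels' protocols. The submitters' processing notes name Cufflinks; version, aligner, build and strand setting: not given in the sources used here. From its values, the deposited main table holds a signal, the authors' estimated fragments times one factor per library: 99.26 to 99.46% of values up to 10000 are whole multiples of a step within 0.1 fragment. The FPKM values the authors deposited were proportional to it within 0.001 log2 for 96.8% of 10427 genes and served for levels between genes. The authors' deposited ratio is that of mean FPKM; their deposited p-value was not used.

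Values were compared with limma 3.58.1 (R 4.3.3, trend) on log2(value + 1), which understates changes of low genes, over 12689 genes averaging at least 1, with treatment as the only term, Benjamini-Hochberg adjustment over all of them, and 2 residual and 27.4 prior degrees of freedom. The procedure was tested on simulated data with the same dispersion for every gene. Such data do not show how it performs where genes differ in their spread. Planned count models (edgeR, DESeq2) were not run because the deposited values are scaled estimates and not raw counts. The limma-voom setting and the replicate comparison used the values divided by each library's factor. Replicates differed by more than sampling noise (chi-square 4.78 and 5.79 per gene). The 9 genes and all lists were chosen with earlier results of these data known. Named are the 9, list genes past the threshold, the 4 others of smallest p in each list, and the genes nearest Ednra and Adra1a; Gnaq, Gna11, genes listed at 0 and marker genes were added after their values were seen. Some list and marker genes that this rule covers are not reported here. Without strand, overlapping genes cannot be told apart. Symbols and promoters came from RefSeq (GRCr8).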

Additional observations from a re-analysis of the deposited data

How the results depend on the processing

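Under TMM scaling, scaling by library total, a pseudocount of 0.1, no filter on low values, a mean of at least 10, limma-voom and a replicate block, each of the 9 genes kept its direction and its side of the threshold, with log2 fold changes of -1.26 to -1.23 for Ednra, -0.73 to -0.70 for Ece1 and -0.67 to -0.64 for Adra1b. Of the 21 other list genes past the threshold, 15 kept their call in all 7 settings. The replicate block gave 1266 genes lower and 1193 higher, against 1313 and 1260 without it; same-numbered libraries did not deviate together (correlation 0.00472), so the numbers are not taken to pair them. With 1 library left out, the lone library of a group is assumed to vary like the other group, with 1 residual degree of freedom. Those 4 fits called 0 to 406 of all genes lower and 0 to 322 higher (2589 to 2841 at an unadjusted p under 0.05), 0 to 7 list genes lower and 0 to 2 higher, and 0 to 2 of the 9 genes lower. Log2 fold changes there ranged from -1.28 to -1.19 for Ednra, -0.75 to -0.66 for Ece1 and -0.78 to -0.52 for Adra1b. Restricted to genes averaging at least 100 (chosen after seeing the data), each of these 4 fits called all 3, with 944 to 1082 of all genes lower and 971 to 1086 higher, and 13 to 17 list genes lower and 2 to 3 higher. In these restricted fits the prior degrees of freedom were infinite, so each gene's variance came from the trend alone and not from its own libraries. The planned edgeR and DESeq2 alternatives were not run. Ace, Agtr1a and Ednrb rest on 131 to 185 fragments, which limits what can be detected.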
